A study of Mus musculus with 9 samples.

Results

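Kidney RNA of mice under AngII, the hormone angiotensin II that constricts vessels and makes the kidney retain salt, was compared between 5 libraries in which a second annotated model of the gene Nnt received counts and 4 libraries in which it stood at 0. The sides were chosen by that count alone, a measured value of these data, and the split divides all 9 libraries of the study. The study had 3 groups of 3 libraries, all given AngII. The AngII group carried the genotype Tmemfl/fl without Cre, the CDH16KO-AngII group CDH16 Cre+/Tmemfl/fl, and the GRPR-AngII group CDH16 Cre+/GRPRfl/fl. Cre named for Cdh16, whose promoter is active in tubule epithelium, was therefore present in 6 of the 9 libraries, while the other cells of whole kidney also contribute RNA. The GRPR-AngII group has no floxed control without Cre. Strain, sex, age and batch are not given in the labels, nor is it given whether each library came from a separate animal, so the spread behind each p-value is that between libraries and may be technical. The second model was counted in AngII libraries 1 and 2, CDH16KO-AngII libraries 1 and 2 and GRPR-AngII library 2. It stood at 0 in AngII library 3, CDH16KO-AngII library 3 and GRPR-AngII libraries 1 and 3. The side at 0 thus holds all 3 libraries numbered 3, and the number and the split cannot be told apart in the AngII and CDH16KO-AngII groups.

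Nnt encodes the nicotinamide nucleotide transhydrogenase of the inner mitochondrial membrane. The enzyme uses the proton gradient to pass hydride from NADH to NADP, and the NADPH it makes feeds the glutathione and thioredoxin systems that remove peroxides in mitochondria. The reference strain C57BL/6J is known for a deletion of several Nnt exons that other strains, C57BL/6N among them, still carry, which is why Nnt is used to tell these substrains apart.

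The gene models themselves were examined first, because the split was proposed as a proxy for strain background. Both lie on the minus strand of chromosome 13 on GRCm38. The first model (ENSMUSG00000025453) spans 119335448 to 119408997 and has 5 transcripts in the GENCODE M21 annotation. The second model (ENSMUSG00000116207) spans 119335528 to 119408952 with 1 transcript, Nnt-206. Nnt-206 has 17 exons, 3339 bases and 2505 coding bases. Transcript Nnt-202 of the first model also has 17 exons and 2505 coding bases, in 3464 bases. The whole sequence of Nnt-206 was found inside Nnt-202, which only adds 45 bases before it and 80 bases after it, and all 15 inner exons have the same ends. The share of the second model's exon bases that also belong to the first model is 100%. Transcript Nnt-201 of the first model skips 2 exons, 342 bases in all. The junction after exon 7 is shown because it is where the annotated Nnt transcripts differ in their coding sequence. The lower case letters are the last 30 bases of exon 7 (chr13:119381676-119381705) and the capitals are the first 30 bases of the exon joined to it. That exon lies at chr13:119374745-119374774 in the first pair and at chr13:119370116-119370145 in Nnt-201, all on the minus strand, 5′ to 3′.
Nnt-206: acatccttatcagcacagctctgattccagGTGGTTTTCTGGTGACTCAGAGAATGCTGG
Nnt-202: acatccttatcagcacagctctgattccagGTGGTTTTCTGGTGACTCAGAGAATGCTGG
Nnt-201: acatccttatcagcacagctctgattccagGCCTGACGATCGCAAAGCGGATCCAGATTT
The transcript of the second model reads the same as Nnt-202 across the junction. No base of the second model is its own, so a fragment inside it also matches the first model, and a count for it does not by itself identify a strain. Whether strain had a part in how the counts were divided was not tested. Exons missing from the C57BL/6J genome can be counted in neither model, since both were annotated on that genome. The libraries are therefore called by the count of the second model and not by strain.

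The second model received 5396 counts in AngII library 1, 4690 in AngII library 2, 1213 in CDH16KO-AngII library 1, 2158 in CDH16KO-AngII library 2 and 940 in GRPR-AngII library 2. The lowest count on that side, 940, lies far from the 0 of the 4 libraries on the other side. The first model received 378, 205, 2345, 2750 and 3810 counts in the same 5 libraries. It received 3000 counts in AngII library 3, 3513 in CDH16KO-AngII library 3, 3478 in GRPR-AngII library 1 and 3313 in GRPR-AngII library 3. These counts chose the split, so they are described without a test. Of the counts of both models, the second took 93.5% (95% Wilson interval 92.8% to 94.1%) in AngII library 1 and 95.8% (95.2% to 96.3%) in AngII library 2. It took 34.1% (32.6% to 35.7%) in CDH16KO-AngII library 1, 43.97% (42.6% to 45.4%) in CDH16KO-AngII library 2 and 19.8% (18.7% to 20.9%) in GRPR-AngII library 2. In the libraries at 0, a floor of 3 counts allows a share of up to 0.1%, 0.0854%, 0.0863% and 0.0906%. These intervals and floors cover counting error only. The share on the counted side thus ran through intermediate values and was highest in AngII libraries 1 and 2. GRPR-AngII had a single counted library, so it gives no spread by which to compare the groups.

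**Figure D1:**
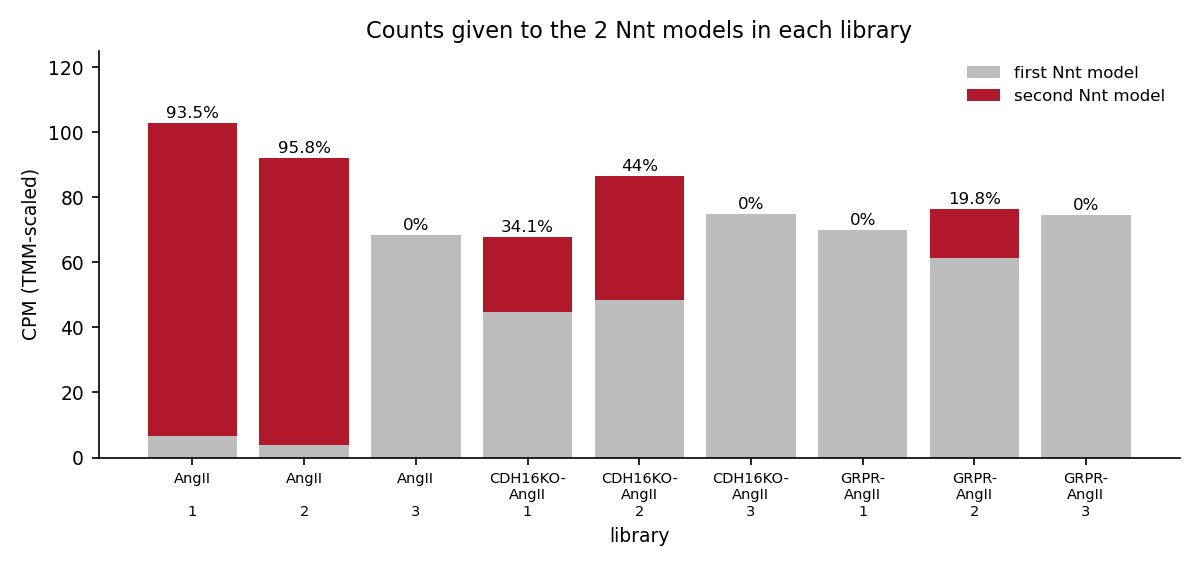
CPM after TMM scaling (y axis) given to the first Nnt model (grey) and the second (red), stacked for each of the 9 libraries (x axis: group and library number), with the second model's share above each bar. The second model holds 93.5% and 95.8% in 2 AngII libraries, 19.8% to 43.97% in 3 Cre-positive libraries and 0 in the other 4, while the stacked height runs from 67.8 to 103 CPM.

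Summed over both models, Nnt stood at 103 and 92.0 CPM (counts per 1000000 after TMM scaling, which evens out differences in library make-up) in AngII libraries 1 and 2, at 67.8 and 86.7 CPM in CDH16KO-AngII libraries 1 and 2 and at 76.4 CPM in GRPR-AngII library 2. On the side at 0 the sum was 68.3 CPM in AngII library 3, 74.8 CPM in CDH16KO-AngII library 3, and 69.96 and 74.5 CPM in GRPR-AngII libraries 1 and 3. The sides had means of 85.2 ± 13.6 CPM (SD, n = 5) and 71.9 ± 3.24 CPM (SD, n = 4). CDH16KO-AngII library 1 had the lowest sum of all 9 libraries although its second model was counted, so the sides overlapped. The sum contains the count that made the split and was not tested.

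Other pairs of models were searched in the same way to see whether the division seen at Nnt occurs elsewhere. The search took same-strand genes with at least 95% of the smaller gene's exon bases inside the other and at least 100 counts for both in some library. It found 23 pairs, 11 of them with the smaller fully inside the larger. In 11 of the 23 pairs the share of the smaller model ranged over 50 points or more across the libraries. Nnt was the only pair whose shares did not overlap between the sides, and there the rule fixed that. Zc3h11a (a zinc finger gene of messenger RNA export) has a second model on chromosome 1 (ENSMUSG00000116275), which received 0, 1740 and 1959 counts in the AngII libraries. The same model received 2, 0 and 23 counts in the CDH16KO-AngII libraries and 0, 3 and 4777 in the GRPR-AngII libraries. Its high libraries, AngII 2, AngII 3 and GRPR-AngII 3, fall on both sides of the Nnt split. This model is the smaller one in the pair with the first Zc3h11a model and in the pair with Gm38394. Both pairs are among the 11, so they are not separate loci. The sum of both Zc3h11a models was itself not steady, from 4.29 to 98.4 CPM without TMM scaling. The inner model of Fam220a took between 18.8% and 99.8% of its pair's counts, also on both sides. Usp50 and Pde2a each contain a predicted gene whose share ran from 0.157% to 100% and from 16.5% to 99.9%. The large differences between libraries in how counts were divided thus occurred at several loci, whose sets of high libraries overlapped in part.

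**Figure D2:**
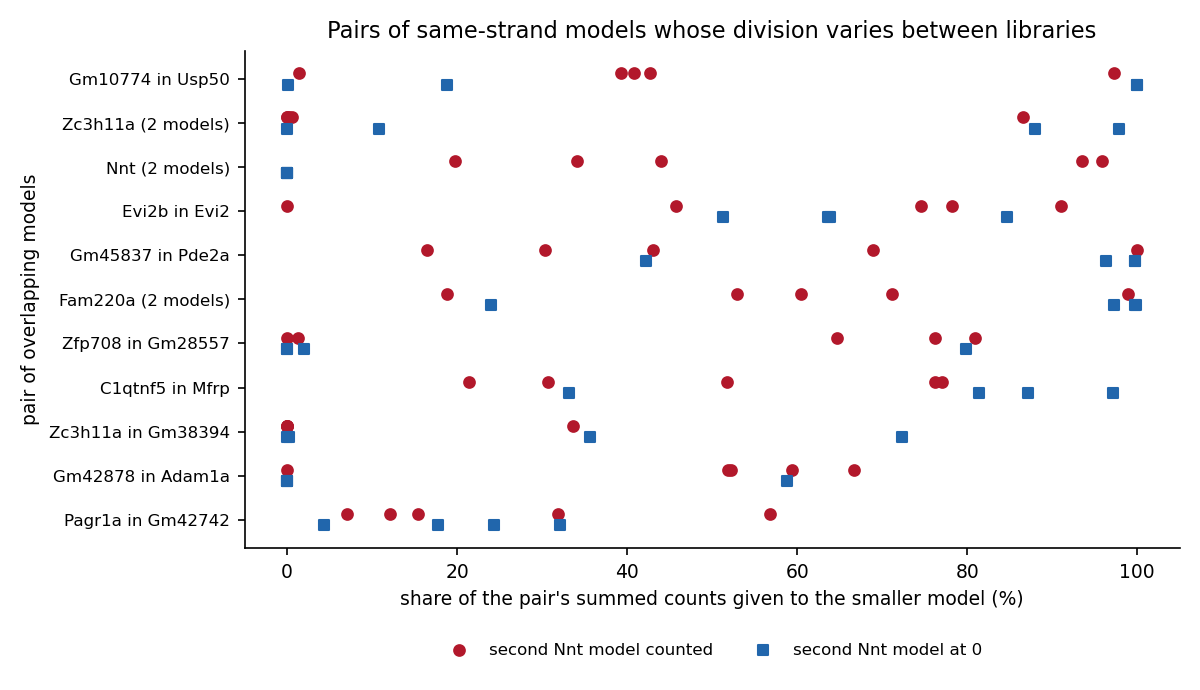
Share of a pair's summed counts given to the smaller model (x axis, percent) for the 11 pairs (y axis) whose share ranges over 50 points or more. Each point is a library, red circles with and blue squares without counts for the second Nnt model. Only in the Nnt pair do the colours separate, which the rule fixed. In the other pairs red and blue lie across each other.

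A wider search gave 116 genes whose lowest library had at most 5% of the CPM of the highest, with the highest at 5 CPM or more. Of these, 37 had a same-strand partner sharing at least 50% of the smaller gene's exon bases. The sides were separated by 3 of the 116, the second Nnt model among them, where the rule fixed that. This is a smaller share than the 4.1% of all tested genes other than the Nnt models whose sides did not overlap. The genes named in this paragraph were chosen after their values were seen. Ugt1a2, a glucuronosyltransferase that shares exons with Ugt1a10, had 792, 32, 14, 19 and 19 counts on the counted side and 0 in all 4 libraries on the other side. Jpt2 had 2438, 1945, 1677, 1438 and 1676 counts against 1018, 1166, 60 and 949, and its GRPR-AngII library 1 stood far under the rest. Adnp, a homeodomain factor essential in development, had 2816, 21, 2813, 3497 and 1553 counts on the counted side and 18, 7, 17 and 12 on the other. Gm20716, which shares 83.1% of the smaller gene's exon bases with Adnp, had 0, 4478, 0, 0 and 3156 counts against 3624, 3812, 3178 and 3521. Adnp and Gm20716 were thus high in opposite libraries, except GRPR-AngII library 2, where both were counted. The log2 fold change of Adnp was 6.77 (SE 1.25, edgeR adjusted p = 0.167), and 1 of the 9 fits that each left out a library called it. That fit lacked AngII library 2, the counted library with few Adnp counts (edgeR adjusted p = 0.000199), and the other fits gave 0.0718 to 0.43. The part of the division of counts in this difference was not tested.

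Library totals ran from 51388231 to 60449117 counts on the counted side and from 40731748 to 49645503 on the other, without overlap. Between 11811 and 12052 genes reached 1 FPKM (fragments per kilobase and 1000000 fragments), against 11456 to 12276. The 20 most abundant genes took 27.5% to 35.5% against 28.9% to 38.2% of the counts. Once group means were removed, the leading principal component held 33.5% of the variance. The libraries with counts scored between −30.3 and 7.31 on it and those at 0 between 1.39 and 22.9, so the sides overlapped through CDH16KO-AngII library 1. The part of depth in the differences listed next was not tested.

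Across the transcriptome, no gene passed the adjusted threshold for the split in edgeR. The Nnt models chose the split and were left out. The edgeR quasi-likelihood test with group in the fit was applied to 12505 other genes, those that reached 1 FPKM in 3 or more libraries. It called 0 (0% of genes tested), and the smallest Benjamini-Hochberg adjusted p was 0.164. At an unadjusted p under 0.05 there were 2161 genes (17.3%), of which 1182 (9.45%) were higher with counts for the second model and 979 (7.83%) lower. The 5 values of one side lay wholly outside the 4 values of the other in 513 genes (4.1%), 278 of them higher (2.22%) and 235 lower (1.88%). DESeq2 with the same model called 420 genes, 234 higher and 186 lower (3.43%, 1.91% and 1.52% of the genes given an adjusted p), and limma called 0. Leaving out 1 library at a time gave 0 to 6 edgeR calls, the most without CDH16KO-AngII library 1. Without the 3 libraries numbered 3, which leaves GRPR-AngII library 1 as the only library at 0, the genes at an unadjusted p under 0.05 numbered 611 and edgeR called 7. In 6 of the 7, Commd1b, Thap12, Jpt2, Fbxo34, Tmem169 and Arfip1, that library stood at 0.121 to 4.32 CPM, so these calls describe 1 library. Ube4a was the seventh. That fit was chosen after seeing the data.

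The genes of smallest p are given by library, and were chosen after their values were seen. Rnasek, a ribonuclease, stood at 31.6 and 26.8 CPM in AngII libraries 1 and 2, 36.3 and 31.3 CPM in CDH16KO-AngII libraries 1 and 2 and 28.1 CPM in GRPR-AngII library 2. On the side at 0 it stood at 70.2 CPM in AngII library 3, 66.2 CPM in CDH16KO-AngII library 3, and 109 and 63.6 CPM in GRPR-AngII libraries 1 and 3. The sides did not overlap, and GRPR-AngII library 1 was the highest. The log2 fold change was −1.28 (SE 0.18, edgeR adjusted p = 0.164). Without GRPR-AngII library 1 the edgeR adjusted p was 0.0384, and it was 0.0598 to 0.43 when any other library was left out. Rnasek shares 67.7% of the smaller gene's exon bases with Gm21988 on the same strand, which had 11358, 10795, 9826, 12764 and 11051 counts on the counted side and 8288, 8714, 6705 and 8565 on the other. These Gm21988 counts were not scaled, and library totals were also higher on the counted side, so no direction is read from them.

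Cep85, a centrosomal protein gene, stood at 101, 108, 225, 185 and 67.2 CPM with counts for the second model and at 184, 322, 167 and 187 CPM without. Within each group its libraries at 0 lay above those with counts, while over all groups the sides overlapped (log2 fold change −0.95, SE 0.15, edgeR adjusted p = 0.164). Chkb, a choline kinase, was at 45.7, 48.0, 73.6, 60.5 and 59.1 CPM against 78.2, 101, 83.6 and 91.9 CPM. Its sides did not overlap (log2 −0.63, SE 0.10, edgeR adjusted p = 0.164). Chkb shares 50.7% of the smaller gene's exon bases with Gm44502. Fdxr, the ferredoxin reductase that passes electrons to mitochondrial cytochromes P450, was at 19.3, 22.5, 31.5, 27.03 and 21.3 CPM against 32.7, 50.7, 28.9 and 32.3 CPM (log2 −0.65, SE 0.11, edgeR adjusted p = 0.164). CDH16KO-AngII library 1, at 31.5 CPM, reached into the range of the other side.

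In the other direction, Ube2e1, a ubiquitin-conjugating enzyme, stood at 23.8, 25.8, 12.2, 18.2 and 16.7 CPM with counts for the second model and at 12.4, 8.04, 8.67 and 7.96 CPM without. CDH16KO-AngII library 1 lay just under AngII library 3, and no other libraries crossed (log2 fold change 0.98, SE 0.14, edgeR adjusted p = 0.164). Dpys, the dihydropyrimidinase of pyrimidine breakdown, was at 24.3, 17.6, 7.81, 7.29 and 20.04 CPM against 10.1, 3.11, 11.99 and 8.34 CPM. Its levels in CDH16KO-AngII were the lowest on each side (log2 1.10, SE 0.17, edgeR adjusted p = 0.164). Manf, a secreted protein induced by stress of the endoplasmic reticulum, was at 50.4, 62.0, 72.5, 77.2 and 84.7 CPM against 41.0, 44.5, 45.3 and 41.7 CPM without overlap (log2 0.72, SE 0.12, edgeR adjusted p = 0.164). The glucuronosyltransferase family member Ugt3a1 (log2 0.70, SE 0.11), the aldehyde dehydrogenase Aldh1a7 (0.94, SE 0.16), the RNA polymerase II subunit Polr2m (0.80, SE 0.14) and the cytoplasmic actin Actg1 (0.76, SE 0.14) were also higher on average on the counted side, with edgeR adjusted p between 0.164 and 0.167. Without CDH16KO-AngII library 1, the counted library that lay lowest in Polr2m and Ube2e1, both had an edgeR adjusted p of 0.0285. The 8 fits that left out another library called neither, with adjusted p from 0.14 to 0.43 for Ube2e1 and from 0.154 to 0.43 for Polr2m.

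**Figure D3:**
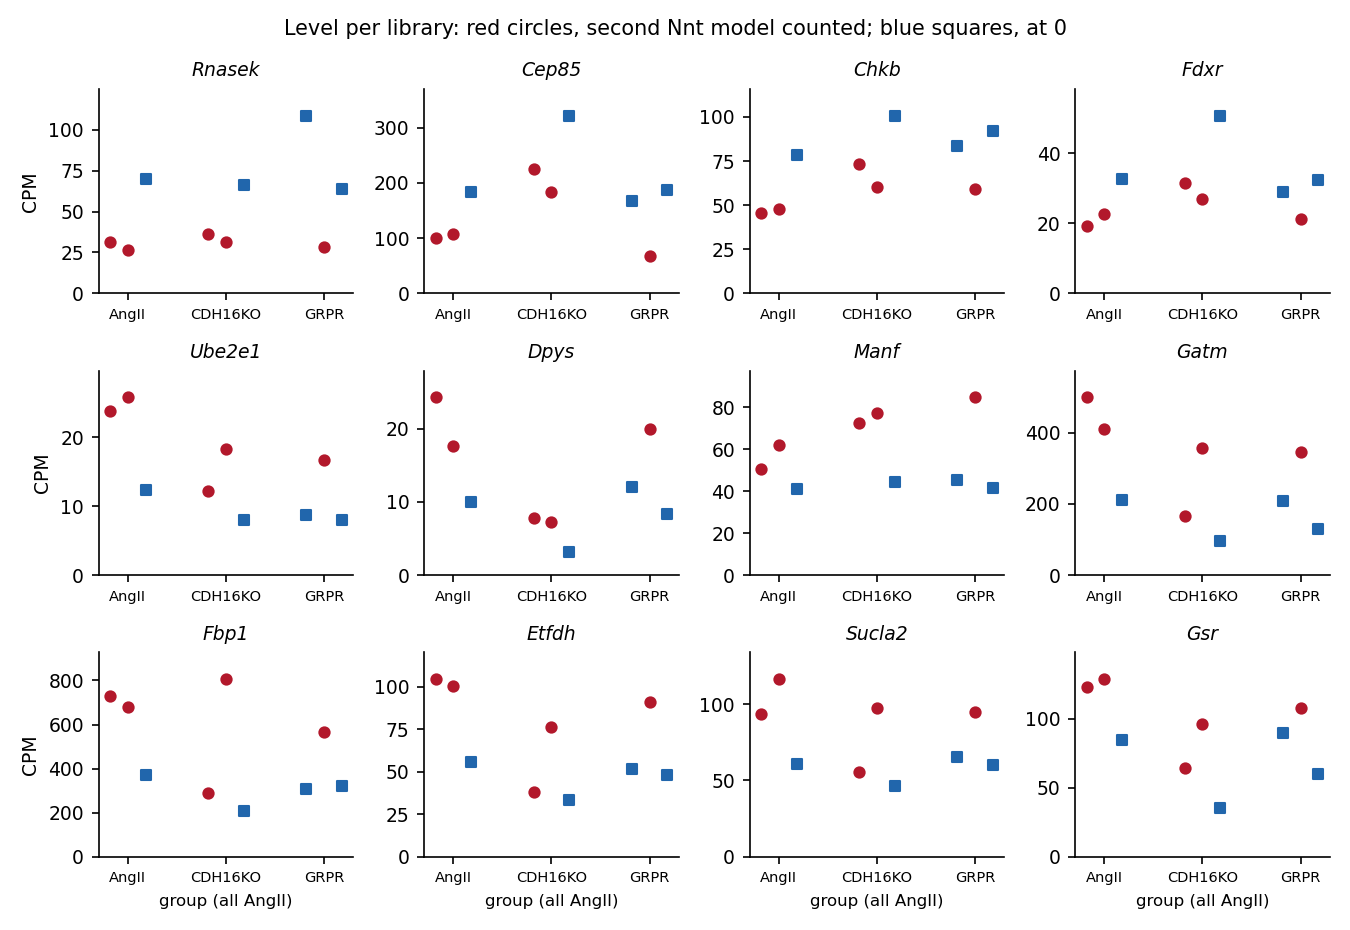
CPM (y axis, from 0) of 12 genes by group (x axis, libraries 1, 2 and 3 from left to right in each group), red circles with and blue squares without counts for the second Nnt model. In the upper row (Rnasek, Cep85, Chkb, Fdxr) the squares lie above the circles within every group, and in the other rows the circles tend to lie above the squares, with CDH16KO-AngII library 1 often the lowest circle.

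The neighbourhood of Nnt was examined because a stretch of foreign chromosome would carry the genes beside it along. Within 5 Mb of Nnt, 20 other genes were tested and 0 were called, and 3 (15%) had an unadjusted p under 0.05, all 3 lower on the counted side. Within 20 Mb these were 11 of 73 (15.1%), 5 higher and 6 lower. Both shares lie under the 17.3% of all genes in either direction. The 15% within 5 Mb, all lower, lies above the 7.83% lower over all genes. Of these 3 genes, Gm9752 lies inside the span of 4833420G17Rik. Chromosome 13 as a whole had the lowest share of the 19 autosomes, 14.7%, and chromosome 9 the highest, 20.8%. No runs of called genes existed, since no gene was called. Whether any library carries a stretch of foreign chromosome beside Nnt was not tested.

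Paip1, a translation factor and the nearest tested gene on the distal side, stood at 50.6, 54.9, 54.1, 55.5 and 49.9 CPM with counts for the second model and at 46.0, 50.3, 51.6 and 44.0 CPM without. The sides overlapped (log2 fold change 0.13, SE 0.10, edgeR adjusted p = 0.504). 4833420G17Rik was at 35.1, 32.6, 46.5, 43.4 and 29.3 CPM against 44.7, 51.8, 55.3 and 49.9 CPM, overlapping through CDH16KO-AngII library 1 and AngII library 3 (log2 −0.48, SE 0.13, edgeR adjusted p = 0.178). Gm9752, whose span lies inside that of 4833420G17Rik, had a log2 fold change of −0.50 (SE 0.19, edgeR adjusted p = 0.240). Parp8, a member of the ADP-ribosyltransferase family, was at 21.9, 20.7, 32.0, 32.1 and 22.5 CPM against 28.2, 45.2, 30.7 and 33.4 CPM, again with the CDH16KO-AngII libraries reaching into the other side (log2 −0.47, SE 0.09, edgeR adjusted p = 0.167). With DESeq2 both Parp8 (adjusted p = 0.0024) and 4833420G17Rik (adjusted p = 0.0322) were called. These 2 of 73 genes within 20 Mb (2.74%) are a smaller share than the 3.43% that DESeq2 called over all genes. Both lie within 5 Mb of Nnt, however, and 2 of the 20 genes tested there are a larger share than 3.43%. The other 8 named neighbours, which were Gm10734, Emb, Gm6421, Mrps30 (a mitochondrial ribosomal protein), Gm10732, Tmem267, Ccl28 (a chemokine) and Hmgcs1 (of sterol synthesis), had log2 fold changes between −0.14 and 0.35, with edgeR adjusted p of 0.443 or more.

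**Figure D4:**
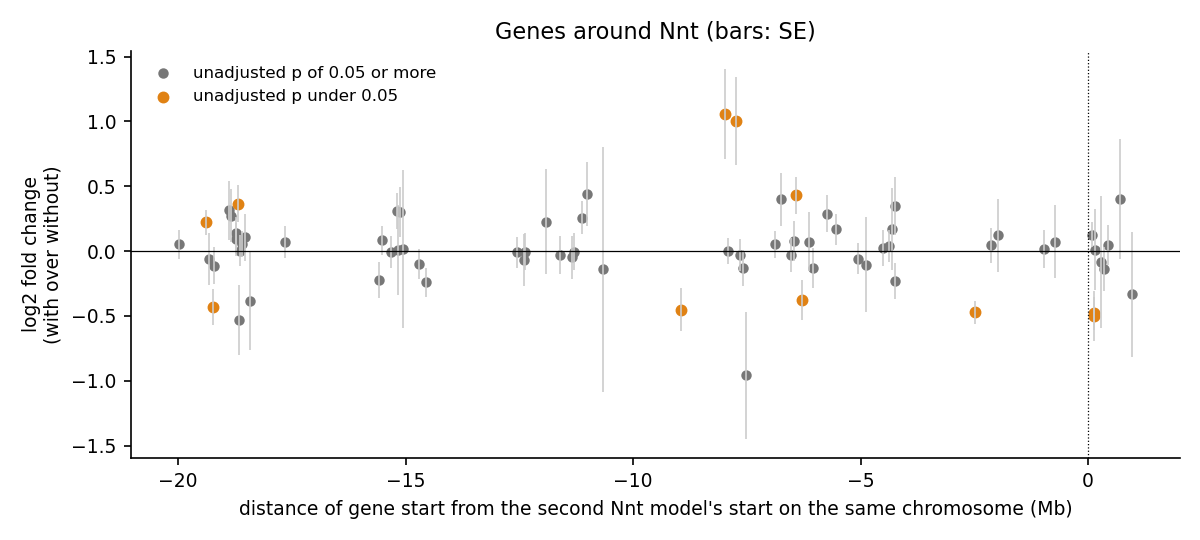
Log2 fold change of libraries with over without counts for the second Nnt model (y axis, bars are SE) of the tested genes within 20 Mb, against distance from Nnt in megabases (x axis). Orange points had an unadjusted p under 0.05, which were 11 of 73, and they lie on both sides of zero.

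Genes known to vary between inbred strains were followed as a second description of strain background. The list has 25 names, Nnt among them, and of the 23 others found among the deposited genes, 14 were tested. None was called, and the median log2 fold change was −0.08 against 0.00 over all genes. Trim12a, of the Trim cluster of antiviral genes, had 483, 342, 695, 6 and 512 counts on the counted side and 615, 14, 686 and 407 on the other. Its near absence marked CDH16KO-AngII libraries 2 and 3, which the Nnt split puts on opposite sides (log2 0.24, SE 1.21, edgeR adjusted p = 0.934). Of the 116 genes with large gaps between libraries, 13 were higher in both of these libraries than in the other 7, by margins that differed widely, and 1 was lower, which was Trim12a. These libraries were taken from the values of Trim12a. No such count was made for other sets of libraries or over all genes, so the 13 have no share to be set against. BC018473, for example, had 960 and 1356 counts in them, 140 in CDH16KO-AngII library 1 and 0 in the other 6 libraries. Cyfip2, which carries a variant between C57BL/6 substrains, had a log2 fold change of 0.44 (SE 0.26, edgeR adjusted p = 0.411). Wdfy1 had −0.19 (SE 0.12, edgeR adjusted p = 0.419), and Entpd4 −0.18 (SE 0.15, edgeR adjusted p = 0.543). A further 9, Apobec3, Pttg1, Glo1, Alad, Trim30a, Cd59a, Akr1e1, Ide and Ren1, lay between −0.26 and 0.23, with edgeR adjusted p of 0.328 or more. The 9 listed genes under the filter on low values were Mx1, Gabra2, Ahr, Ifi202b, Hc, Casp4, Disc1, Crb1 and Nlrp12.

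Genes of the reactions that Nnt serves were then described, from lists written with earlier results of these data known. Of 37 genes of nicotinamide nucleotide and mitochondrial redox metabolism, 32 were tested and 0 called. At an unadjusted p under 0.05 there were 3 higher on the counted side and 0 lower, and the median was 0.15. The 3 are 9.38%, against 9.45% higher and 17.3% in either direction over all genes. Gsr, which reduces oxidised glutathione with NADPH, stood at 123, 129, 64.1, 95.8 and 108 CPM with counts for the second model and at 84.2, 35.3, 89.2 and 60.3 CPM without. The libraries at 0 lay below those with counts within each group but not across groups (log2 fold change 0.75, SE 0.19, edgeR adjusted p = 0.168). Prdx3, the peroxidase of the mitochondrial matrix, was at 121, 141, 71.4, 119 and 118 CPM against 91.5, 60.5, 87.1 and 85.8 CPM, with CDH16KO-AngII library 1 inside the range of the other side (log2 0.54, SE 0.16, edgeR adjusted p = 0.195). Me1, the cytosolic malic enzyme that also makes NADPH, had a log2 fold change of 0.55 (SE 0.24, edgeR adjusted p = 0.279) and Glrx5, the glutaredoxin of iron-sulphur cluster assembly, 0.40 (SE 0.20, edgeR adjusted p = 0.335). DESeq2 called Gsr (adjusted p = 0.0118) and Prdx3 (adjusted p = 0.0438).

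Of 29 tested genes of NRF2 and glutathione, 5 were higher and 1 lower at an unadjusted p under 0.05 (20.7%, near the 17.3% of all genes), with a median of 0.14. Gsta3, a glutathione transferase, was at 79.8, 88.4, 26.9, 46.3 and 77.3 CPM against 50.9, 17.96, 51.5 and 43.8 CPM (log2 0.81, SE 0.17, edgeR adjusted p = 0.167). Txnrd1, the cytosolic thioredoxin reductase, had 0.48 (SE 0.15, edgeR adjusted p = 0.201). Hmox1, the heme oxygenase, had 0.87 (SE 0.22, edgeR adjusted p = 0.169), with 28.01, 34.6, 24.5, 20.2 and 78.8 CPM against 28.4, 11.96, 24.04 and 28.99 CPM. GRPR-AngII library 2 was high for Hmox1, and the other libraries overlapped.

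Nuclear genes of mitochondrial fuel use stood somewhat higher on average with counts for the second model, and none passed the adjusted threshold in edgeR. All 19 tested citrate cycle genes had a log2 fold change above 0, with a median of 0.26, and 5 (26.3%, all higher, against 9.45% higher over all genes) had an unadjusted p under 0.05. Sucla2, a subunit of succinyl-CoA ligase, stood at 93.6, 116, 55.5, 97.7 and 94.9 CPM against 61.1, 46.5, 65.0 and 59.8 CPM (log2 0.70, SE 0.17, edgeR adjusted p = 0.168). CDH16KO-AngII library 1 alone fell into the range of the other side. Of 41 tested genes of fatty acid oxidation, 35 were above 0, 12 (29.3%, against 9.45% over all genes) were higher and 0 lower at an unadjusted p under 0.05, and the median was 0.30. Etfdh, which passes electrons from beta-oxidation to ubiquinone, was at 104, 100, 37.9, 76.5 and 91.1 CPM against 55.8, 33.3, 51.5 and 48.1 CPM (log2 0.84, SE 0.19, edgeR adjusted p = 0.167). CDH16KO-AngII library 1 was again low, and without it the edgeR adjusted p of Etfdh was 0.0285, against 0.171 to 0.43 in the 8 fits that left out another library. Acot1, an acyl-CoA thioesterase, had 0.96 (SE 0.21, edgeR adjusted p = 0.167). Hadha and Hadhb, the subunits of the mitochondrial trifunctional protein, had 0.45 (SE 0.11) and 0.46 (SE 0.11), each with an edgeR adjusted p of 0.168. DESeq2 called 5 genes of this list, Hacl1, Hadha, Etfdh, Hadhb and Acot1, and 1 of the 19 citrate cycle genes, Sucla2, where it called 3.43% of all genes.

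Respiratory chain subunits coded in the nucleus had a median of 0.05, with 6 of 29 higher and 0 lower at an unadjusted p under 0.05. The 6 are 20.7%, against 9.45% higher and 17.3% in either direction over all genes. Among the subunits Atp5a1, of ATP synthase, had 0.59 (SE 0.16) and Sdhd, of succinate dehydrogenase, 0.62 (SE 0.17), with edgeR adjusted p of 0.186 and 0.182. The 13 listed genes coded in mitochondria were all on the other side of 0, with a median of −0.25, and 1 (7.69%) had an unadjusted p under 0.05. All 36 tested genes of the mitochondrial chromosome had a median of −0.17, and 2 (5.56%) had an unadjusted p under 0.05. All 37 deposited mitochondria-coded genes together took 21.5% and 17.2% of counts in AngII libraries 1 and 2, 23.4% and 16.1% in CDH16KO-AngII libraries 1 and 2 and 19.1% in GRPR-AngII library 2. They took 17.4% in AngII library 3, 26.4% in CDH16KO-AngII library 3, and 19.2% and 24.6% in GRPR-AngII libraries 1 and 3. The sides overlapped, and the mean within-group difference of −2.49 percentage points had an exact two-sided permutation p of 0.444 (27 arrangements within groups, smallest possible p 0.037).

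**Figure D5:**
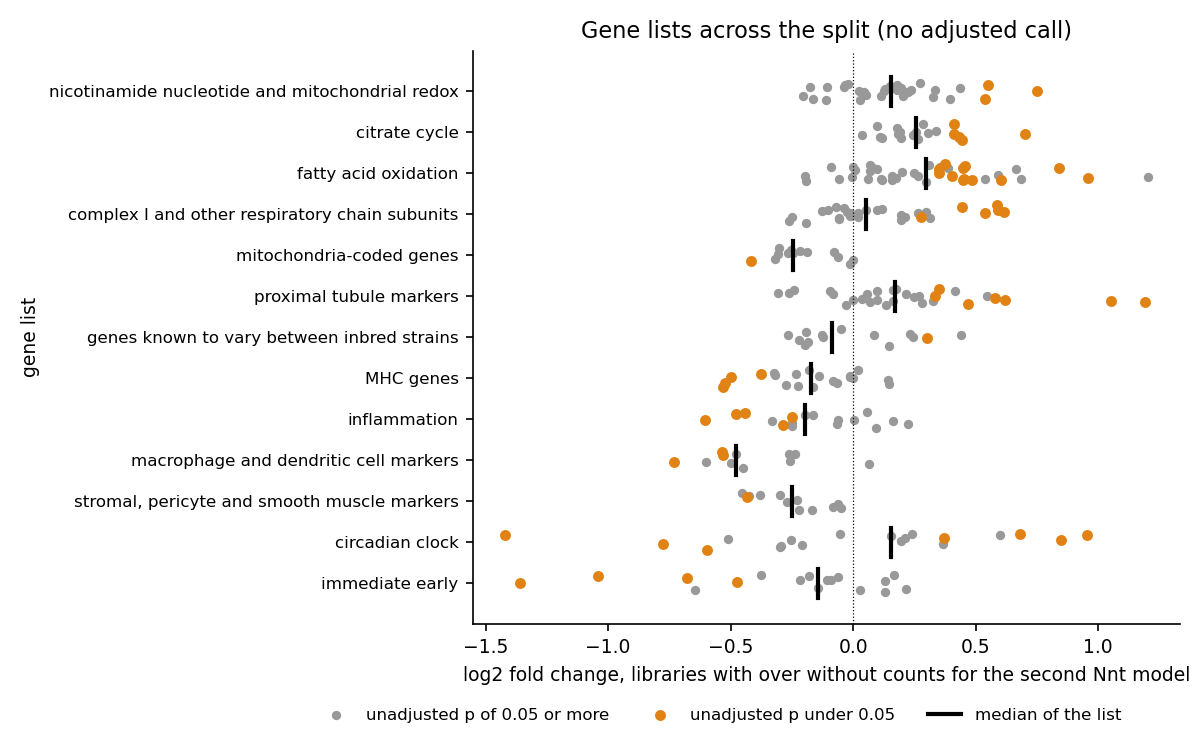
Log2 fold change of libraries with over without counts for the second Nnt model (x axis) of each tested member of 13 gene lists (y axis). Orange points had an unadjusted p under 0.05 and black bars are the medians. Medians run from −0.48 for macrophage and dendritic cell markers to 0.30 for fatty acid oxidation genes, and single members spread widely around them.

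Markers of kidney cell types were read beside these lists. In whole kidney RNA, fewer cells of a type and less RNA per cell cannot be told apart. Of 30 tested proximal tubule markers, 7 were higher and 0 lower at an unadjusted p under 0.05 (23.3%, against 9.45% higher over all genes), 23 had a log2 fold change above 0 and 7 below, and the median was 0.17. Their summed level ran from 35816.5 to 49327.7 CPM with counts for the second model and from 37303.7 to 63175.3 CPM without. The sums overlapped, and their median was lower on the counted side, 47522.9 against 51773.9 CPM. Gatm, the enzyme that starts creatine synthesis, stood at 499, 411, 165, 358 and 345 CPM against 211, 96.3, 208 and 128 CPM (log2 fold change 1.19, SE 0.25, edgeR adjusted p = 0.167). Fbp1, of gluconeogenesis, was at 731, 680, 290, 806 and 565 CPM against 369, 209, 307 and 321 CPM (log2 1.05, SE 0.28, edgeR adjusted p = 0.178). In both genes CDH16KO-AngII library 1 was the low library of the counted side. Lrp2, the endocytic receptor megalin (log2 0.47, SE 0.15, edgeR adjusted p = 0.206), and Aqp1, a water channel (0.58, SE 0.17, edgeR adjusted p = 0.195), were the other members that DESeq2 called beside Gatm and Fbp1. Markers of the loop of Henle and distal convoluted tubule had 0 of 16 at an unadjusted p under 0.05 and a median of 0.05. The part of cell make-up in the levels of the fuel genes above was not tested.

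Markers of macrophages and dendritic cells had a median of −0.48, with 10 of 11 tested below 0 and 3 (27.3%, against 7.83% over all genes) lower at an unadjusted p under 0.05. Their sum ran from 162 to 261 CPM with counts for the second model and from 216 to 312 CPM without. Tyrobp, a signalling adaptor of myeloid cells, stood at 6.06, 4.27, 5.03, 5.60 and 6.55 CPM against 9.77, 8.89, 11.0 and 7.92 CPM without overlap (log2 fold change −0.73, SE 0.18, edgeR adjusted p = 0.168). Csf1r, the receptor that macrophages need, was at 49.3, 45.4, 72.6, 41.7 and 63.6 CPM against 64.1, 98.6, 71.7 and 91.2 CPM (log2 −0.53, SE 0.17, edgeR adjusted p = 0.206). All 12 tested stromal, pericyte and smooth muscle markers were below 0, with a median of −0.25, and 1 had an unadjusted p under 0.05. Of 14 endothelial markers 2 were lower (14.3%, against 7.83% over all genes), and Egfl7, a secreted endothelial protein, was at 47.3, 46.1, 60.2, 48.8 and 56.9 CPM against 82.5, 80.5, 68.9 and 73.6 CPM without overlap (log2 −0.57, SE 0.12, edgeR adjusted p = 0.167). Adrenal markers summed to 2.92 to 4.58 CPM against 2.35 to 4.62 CPM, and none passed the filter on low values.

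The MHC, inflammation, and interferon and STING lists also had medians below 0. B and plasma cell markers did not, with a median of 0.01 and 4 of 8 tested above 0. The 4 tested T and NK cell markers had a median of −0.47, with 0 at an unadjusted p under 0.05. Of 20 tested MHC genes, which differ in sequence between strains, 4 were lower and 0 higher at an unadjusted p under 0.05. The 4 are 20%, against 7.83% lower and 17.3% in either direction over all genes, and the median was −0.17. H2-Aa, a class II chain that dendritic cells and macrophages display, was at 134, 79.5, 69.0, 94.1 and 105 CPM against 170, 122, 158 and 104 CPM (log2 −0.52, SE 0.20, edgeR adjusted p = 0.234), and H2-Eb1 had −0.53 (SE 0.20, edgeR adjusted p = 0.226). Of 17 inflammation genes 5 (29.4%, against 7.83% over all genes) were lower and 0 higher. Icam1, an adhesion molecule for leukocytes, was at 21.96, 19.7, 25.3, 21.2 and 21.8 CPM against 31.1, 28.1, 32.7 and 27.8 CPM without overlap (log2 −0.44, SE 0.12, edgeR adjusted p = 0.178). The interferon and STING response had 2 of 29 lower (6.90%) and a median of −0.11. The part of immune cell number in these levels was not tested.

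Clock and immediate early genes, which are known to vary with the hour and with handling of tissue, were read as well. Of 19 tested clock genes, 4 were higher and 3 lower at an unadjusted p under 0.05 (36.8%, against 17.3% of all genes). Arntl, of the positive limb of the clock, was at 16.3, 14.2, 20.3, 12.1 and 18.1 CPM against 8.27, 11.1, 12.2 and 11.2 CPM (log2 fold change 0.68, SE 0.17, edgeR adjusted p = 0.168), and its partner Npas2 had 0.85 (SE 0.24, edgeR adjusted p = 0.186). Dbp, an output gene that peaks in the opposite phase, was at 13.95, 10.8, 6.23, 22.1 and 5.79 CPM against 45.4, 31.5, 8.59 and 18.1 CPM (log2 −1.42, SE 0.37, edgeR adjusted p = 0.177). The related output gene Tef had −0.60 (SE 0.14, edgeR adjusted p = 0.167). Arntl and Npas2 thus stood opposite to Dbp and Tef in sign. Among 17 immediate early genes 4 were lower and 0 higher (23.5%, against 7.83% lower over all genes). Egr1 was at 4.40, 7.28, 7.60, 8.07 and 5.57 CPM against 18.1, 10.002, 15.7 and 7.33 CPM (log2 −1.04, SE 0.30, edgeR adjusted p = 0.195), and Fos had −1.36 (SE 0.54, edgeR adjusted p = 0.251). The part of sampling time was not tested. The Y-linked Ddx3y was expressed in all 9 libraries and ran from 25.4 to 32.7 CPM with counts for the second model and from 24.7 to 30.3 CPM without. Of 19 tested genes listed as female-biased or male-biased, 17 had a log2 fold change above 0 and 2 below, with a median of 0.28. At an unadjusted p under 0.05, 2 were higher and 1 lower (15.8%, against 17.3% of all genes). The lower one was Slc22a7, an anion carrier with a sex difference in kidney. It was at 56.6, 93.9, 57.8, 92.4 and 92.2 CPM against 144, 105, 157 and 238 CPM without overlap (log2 −0.84, SE 0.23, edgeR adjusted p = 0.182).

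Genes that the series is about were not separated by the split. Sting1, the innate immune adaptor of the series title, stood under the filter, at 4.62, 1.77, 2.15, 2.24 and 2.90 CPM with counts for the second model and at 5.33, 2.04, 2.90 and 2.68 CPM without. Acsl4, which loads polyunsaturated fatty acids onto coenzyme A, was at 20.1, 19.8, 15.4, 20.8 and 19.3 CPM against 19.5, 13.2, 15.9 and 15.5 CPM (log2 fold change 0.26, SE 0.13, edgeR adjusted p = 0.355). Cdh16 was at 763, 760, 598, 696 and 680 CPM against 617, 682, 526 and 566 CPM (log2 0.18, SE 0.13, edgeR adjusted p = 0.483). The sides overlapped for all of these.

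Whether the difference between the sides itself differed between the groups was tested with the interaction of group and split. Of 12505 genes, 7 (0.056%) passed, and 506 (4.05%) had an unadjusted p under 0.05. In AngII and CDH16KO-AngII a single library stands on the side at 0, and in GRPR-AngII a single library stands on the counted side. Nf2, the tumour suppressor merlin, stood at 75.4 and 70.9 CPM in AngII libraries 1 and 2 and at 61.6 and 59.4 CPM in CDH16KO-AngII libraries 1 and 2. It stood at 6.49 CPM in AngII library 3 and 6.04 CPM in CDH16KO-AngII library 3, while the GRPR-AngII libraries held 54.4, 61.8 and 60.7 CPM (edgeR adjusted p = 0.0169). Hnrnpa3, an RNA-binding protein gene, had the same low libraries, 11.96 CPM in AngII library 3 and 7.77 CPM in CDH16KO-AngII library 3, against 70.3 to 98.2 CPM elsewhere (edgeR adjusted p = 0.0169). Ptp4a1, a phosphatase gene with a second overlapping model, was at 0 in AngII library 3, where the other model (ENSMUSG00000026064) had 1107 counts against 20 to 108 in the other libraries (edgeR adjusted p = 0.00854). Ablim1, an actin-binding protein gene, was low in AngII library 3 alone, at 3.55 CPM against 54.1 to 77.6 CPM (edgeR adjusted p = 0.0169). Msl2 was low in CDH16KO-AngII library 3 alone, at 4.23 CPM against 28.7 to 36.98 CPM (edgeR adjusted p = 0.0169). Yes1, a Src family kinase, was low in CDH16KO-AngII library 3 and GRPR-AngII library 2, at 3.21 and 4.84 CPM against 13.1 to 19.5 CPM (edgeR adjusted p = 0.0393). 4933427D14Rik was low in AngII libraries 1 and 2, at 0.499 and 0.395 CPM against 12.3 to 19.5 CPM (edgeR adjusted p = 0.0169). In each of these 7 genes 1 or 2 libraries lay far from all others. Leaving out 1 library moved the 7 calls from 3 when AngII library 2 was dropped to 19 when CDH16KO-AngII library 2 was dropped, and the likelihood ratio test of DESeq2 called 119 (0.952%).

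Finally, the genotype comparisons were fitted with the split as a covariate, which asks how much of the spread within groups it takes up. The typical variation between libraries, the square root of the common dispersion, was 21.8% with the split in the fit and 23.5% with group alone. CDH16KO-AngII against AngII gave 50 calls (0.4% of genes tested) with the split and 21 (0.168%) without it, and all 21 were among the 50 (42%). GRPR-AngII against CDH16KO-AngII gave 44 (0.352%) against 18 (0.144%), and all 18 were among the 44 (40.9%). GRPR-AngII against AngII gave 0 calls either way in edgeR, with 778 genes at an unadjusted p under 0.05 with the split, 843 without it, and 57 calls (0.456%) in DESeq2 with it. DESeq2 with the split called 363 genes (3.02%) in CDH16KO-AngII against AngII and 285 (2.28%) in GRPR-AngII against CDH16KO-AngII. These comparisons share libraries with each other. The genes called with the split and not without it, chosen after their values were seen, included peroxisomal Ehhadh, which was lower in CDH16KO-AngII than in AngII by a log2 fold change of −1.64 (SE 0.26, edgeR adjusted p = 0.0375, against 0.145 with group alone). Acot1 had −2.20 there (SE 0.25, edgeR adjusted p = 0.0131 against 0.132), Dpys −1.54 (SE 0.19, edgeR adjusted p = 0.015 against 0.295) and Gsta3 −1.30 (SE 0.19, edgeR adjusted p = 0.0296 against 0.280). Aldh1a7 had −1.56 (SE 0.19, edgeR adjusted p = 0.0144 against 0.211). Parp8, one of the neighbours of Nnt, had 0.62 (SE 0.10, edgeR adjusted p = 0.0419 against 0.413). Leaving out single libraries moved the 50 calls from 3 when AngII library 1 was dropped to 276 when CDH16KO-AngII library 2 was dropped. It moved the 44 calls from 1 when CDH16KO-AngII library 3 was dropped to 118, again for CDH16KO-AngII library 2.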

How the data were processed

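The authors deposited one table of 32593 genes with a count and an FPKM value per library, per the file headers. The submitters' processing notes name GRCm38 and mm10, while the sources used here do not name an aligner, a counting program or its use of strand. The counts deposited by the authors were whole numbers, but the value 4 was more frequent than 3 or 5 in every library, so they may be rounded estimates. FPKM values, deposited by the authors with 2 decimals, served for the filter (at least 1 in at least 3 libraries, 12507 genes) and in alternatives. The main test was the quasi-likelihood test of edgeR 4.0.16 (R 4.3.3) on the counts, with TMM scaling, column totals as library sizes, 1 coefficient per group and 1 for the split, and a Benjamini-Hochberg adjusted p under 0.05. Each SE was derived as the fold change over the root of F. Alternatives used DESeq2 1.42.0, limma 3.58.1, other scalings and filters, a block and left-out libraries. Exon overlap was computed from GENCODE M21, where 32494 identifiers matched and 91.1% of them had the same start and end. Figures used matplotlib 3.10.9 in Python 3.11.15.

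Library pairs within a group had a chi-square of 74.2 to 366 per gene, far above counting noise, and no library was counted as a copy. Scripts were tested on simulated data. The split, the gene lists and the rule for named genes were chosen with earlier results of these data known. The rule took the Nnt models, called genes by fold and p (none), the 6 tested genes on each side of Nnt, the 4 redox genes of smallest p, the strain-variable genes, and Sting1, Cdh16 and Acsl4. Grpr was not analysed here. The result of 1 strain-variable gene is not reported here.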

Additional observations from a re-analysis of the deposited data

Results flagged for a closer look

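The difference between the sides of the split differed between the groups for 7 genes by the interaction test of edgeR. The adjusted p was 0.00854 for Ptp4a1, 0.0393 for Yes1 and 0.0169 for each of Nf2, Msl2, 4933427D14Rik, Ablim1 and Hnrnpa3.

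Single libraries far from the rest of their side were searched with Dixon's criterion in the 5 and the 4 libraries of each side. Of 152 sets of values 15 were marked (9.87%), where chance marks about 1 in 20 if a side is 1 population. Each side holds all 3 groups, so a difference between groups can also mark a library. CDH16KO-AngII library 3 is the only library of its group on the side at 0. It stood at 16.6 CPM for Ccl28 (2.81 to 3.52 in the other libraries at 0), at 107 CPM for Me1 (232 to 246), at 53.9 CPM for Akr1e1 (64.7 to 66.1), at 322 CPM for Cep85 (167 to 187) and at 6.72 CPM for Acot1 (48.3 to 54.3). CDH16KO-AngII library 1 stood at 15.4 CPM for Acsl4 (19.3 to 20.8 in the other libraries with counts) and at 93.6 CPM for Sdhd (163 to 187). CDH16KO-AngII library 2 stood at 28.1 CPM for Ccl28 (1.98 to 6.53). AngII library 1 stood at 76.5 CPM for Ren1 (47.2 to 50.7), and AngII library 3 at 12.4 CPM for Ube2e1 (7.96 to 8.67) and 92.7 CPM for Hadhb (72.2 to 74.4). GRPR-AngII library 1 stood at 109 CPM for Rnasek (63.6 to 70.2) and 1.21 CPM for Jpt2 (21.3 to 24.8). GRPR-AngII library 2 stood at 78.8 CPM for Hmox1 (20.2 to 34.6), and GRPR-AngII library 3 at 176 CPM for Entpd4 (137 to 143).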

How the results depend on the processing

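The split gave 0 edgeR calls, and 16 of 28 alternatives also gave 0, among them limma and other scalings and filters. It gave 420 calls with DESeq2, 1 with no group term (Rnasek), 1 with the second model's share as a number (Mns1), 3 in AngII and CDH16KO-AngII alone, 1 in AngII and GRPR-AngII alone and 2 in CDH16KO-AngII and GRPR-AngII alone. Without the libraries numbered 3, an alternative chosen after seeing the data, it gave 7, with GRPR-AngII library 1 alone on the side at 0. Leaving out 1 library gave 0 to 6. Near Nnt, DESeq2 gave 2 calls and leaving out 1 library gave 0 throughout. Counting overlapping models together and leaving out libraries in the interaction test were also chosen after seeing the data.

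CDH16KO-AngII against AngII (50 calls) gave 21 with group alone, 363 with DESeq2 and 3 to 276 with 1 library left out. GRPR-AngII against AngII (0) gave 57 with DESeq2 and 0 to 2 with 1 library left out. GRPR-AngII against CDH16KO-AngII (44) gave 18 with group alone, 285 with DESeq2 and 1 to 118 with 1 library left out. The interaction (7) gave 12 with no filter, 119 with the DESeq2 likelihood ratio test and 3 to 19 over the 6 fits possible with 1 library left out. The mitochondrial difference ran from −4.73 to −0.417 points with 1 library left out. The cause of these differences was not tested. Where a group kept 1 library on a side, it was assumed to vary like the others.

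With the replicate number as a block, the split gave 7 calls, CDH16KO-AngII against AngII 26 and GRPR-AngII against CDH16KO-AngII 17. All libraries numbered 2 have counts for the second model and all numbered 3 have none, so the block leaves the split to be estimated from GRPR-AngII library 1, and in all 7 genes that library lay below every other library (0.221 to 8.45 CPM). The number does not pair the libraries by the labels, same-numbered libraries correlated between −0.126 and 0.319, and 7 of 9 had their best partner under their own number. Of 2034 values of 73 named genes over the alternatives, 1928 stayed uncalled within 1 SD of the gene's level. A further 59 stayed uncalled and moved further, and 47 passed the threshold, 0 of these with the other sign. The 73 include genes picked for the text after their values were seen. All alternatives draw on the same 9 libraries, so the agreement in sign is no independent support. Among uncalled values 17 genes changed sign in at least 1 alternative (67 values), Tmem267, Ccl28, Trim12a, Mrps30 and Cd59a most often. Depth limits low genes: 3 counts amount to 0.0483 to 0.0683 CPM.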
